A study of Mus musculus with 4 samples.

Results

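The genes of the cytosolic ribosomal proteins were followed through RNA-seq of 4 stable 3T3-L1 lines, made from a mouse fibroblast-like line that turns into fat cells under adipogenic hormones. Members were chosen by name only, as gene symbols made of Rps or Rpl followed by a number, a, p0, p1 or p2, without Rps6k kinases and pseudogenes. The rule found 80 of the 13085 genes with a row, of which 32 encode proteins of the small subunit (Rps) and 48 proteins of the large subunit (Rpl). RefSeq holds 89 symbols of this form, and the other 9 (Rpl3l, Rpl6l, Rpl10l, Rpl32l, Rpl39l, Rps3a2, Rps3a3, Rps4l and Rps12l1) had no row in the files analysed here.

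FLAG cells carry the empty FLAG vector and FLAG-CACUL1 cells a vector that expresses FLAG-tagged CACUL1, and both were selected as G418-resistant colonies. sh-Luc cells carry a hairpin RNA against luciferase and sh-CACUL1 cells one against CACUL1, and both were selected with Hygromycin B. Every line was driven into adipogenesis with 5 μM rosiglitazone, 0.5 mM IBMX, and insulin and dexamethasone at 5 and 1 μg/mL, and RNA was isolated at day 8 of differentiation. Each line gave 1 sample, so no gene could be tested, and no difference given here has a replicate check. How CACUL1 overexpression or knockdown changes the transcripts of 3T3-L1 cells was the question of the series.

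A ribosome joins a small subunit, which reads the mRNA codon by codon, to a large subunit, which forms the peptide bonds and releases the chain through an exit tunnel. Nearly every ribosomal protein is present in 1 copy per ribosome, and growing cells devote a large part of their transcription to making them. The mRNAs begin with a stretch of pyrimidines, the 5′ terminal oligopyrimidine (TOP) motif, through which mTORC1 and LARP1 control their translation. Most of these genes have left processed pseudogenes in mammalian genomes, copies of the spliced mRNA that resemble the parent gene closely.

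The files give FPKM, the number of fragments divided by transcript length and by the mapped fragments of the sample. The evenly spaced low values correspond to about 14500000 fragments for FLAG and 14300000 for FLAG-CACUL1, and to 23900000 for sh-Luc and 15100000 for sh-CACUL1. Cacul1 itself had 9.61 FPKM in FLAG, 11.8 in FLAG-CACUL1, 5.39 in sh-CACUL1 and 10.2 in sh-Luc. The row does not show whether fragments of the FLAG-CACUL1 construct were counted in it. The lines also differed in how far they resembled adipocytes. The 14 adipocyte markers, among them Adipoq and Fabp4, summed to 8859 FPKM in FLAG against 987 in FLAG-CACUL1, and 1893 in sh-Luc against 18586 in sh-CACUL1. In FLAG-CACUL1 14 of the 14 were at least 2-fold lower than in FLAG, and in sh-CACUL1 13 were at least 2-fold higher than in sh-Luc. The 9 measured of 10 preadipocyte or fibroblast markers summed to 8746, 11784, 5966 and 1355 FPKM in the same order. They did not all move alike. In FLAG-CACUL1 5 were at least 2-fold higher than in FLAG, beside 7.51% of all genes, and 1, Dlk1, was lower, beside 7.22%. In sh-CACUL1 6 were at least 2-fold lower than in sh-Luc, beside 16.4% of all genes, and 2, Dlk1 and Thy1, were higher, beside 4.94%. The summed level of 6 cell cycle markers lay between 68.5 FPKM (sh-CACUL1) and 148 FPKM (sh-Luc). The 3 measured macrophage markers summed to between 2.91 and 68.3 FPKM, the 2 osteoblast or cartilage markers to between 6.84 and 30.1 FPKM, and Des, the muscle marker with a row, lay between 1.13 and 8.35 FPKM. Pecam1, the endothelial marker with a row, stayed under 0.302 FPKM in every line. The part of the state of differentiation in the differences described here was not tested. In bulk RNA, a different share of cells of a type and a different amount of RNA per cell cannot be told apart.

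Ribosomal protein genes were among the most abundant transcripts of every line. Of the 50 genes with the highest mean FPKM 22 encode ribosomal proteins, and so do 67 of the 200 highest. All 80 were above 1 FPKM in every sample. Their summed FPKM made up 14.6% of the total in FLAG against 15.7% in FLAG-CACUL1, and 14.6% in sh-Luc against 19.0% in sh-CACUL1. The share was thus highest in sh-CACUL1, while its summed FPKM of members, 70640.4, lay between 68638 in FLAG and 74137 in FLAG-CACUL1. The total over all genes was lowest in sh-CACUL1, at 372148 FPKM against 471681, 473584 and 416081 in FLAG, FLAG-CACUL1 and sh-Luc. The small subunit took 6.36% of the total in FLAG against 7.02% in FLAG-CACUL1, and 6.50% in sh-Luc against 7.88% in sh-CACUL1. The large subunit took 8.19%, 8.63%, 8.09% and 11.1%. The median member had 809 FPKM in FLAG against 835 in FLAG-CACUL1, and 638 in sh-Luc against 816 in sh-CACUL1, so sh-Luc was the line with the lowest median.

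**Figure D1:**
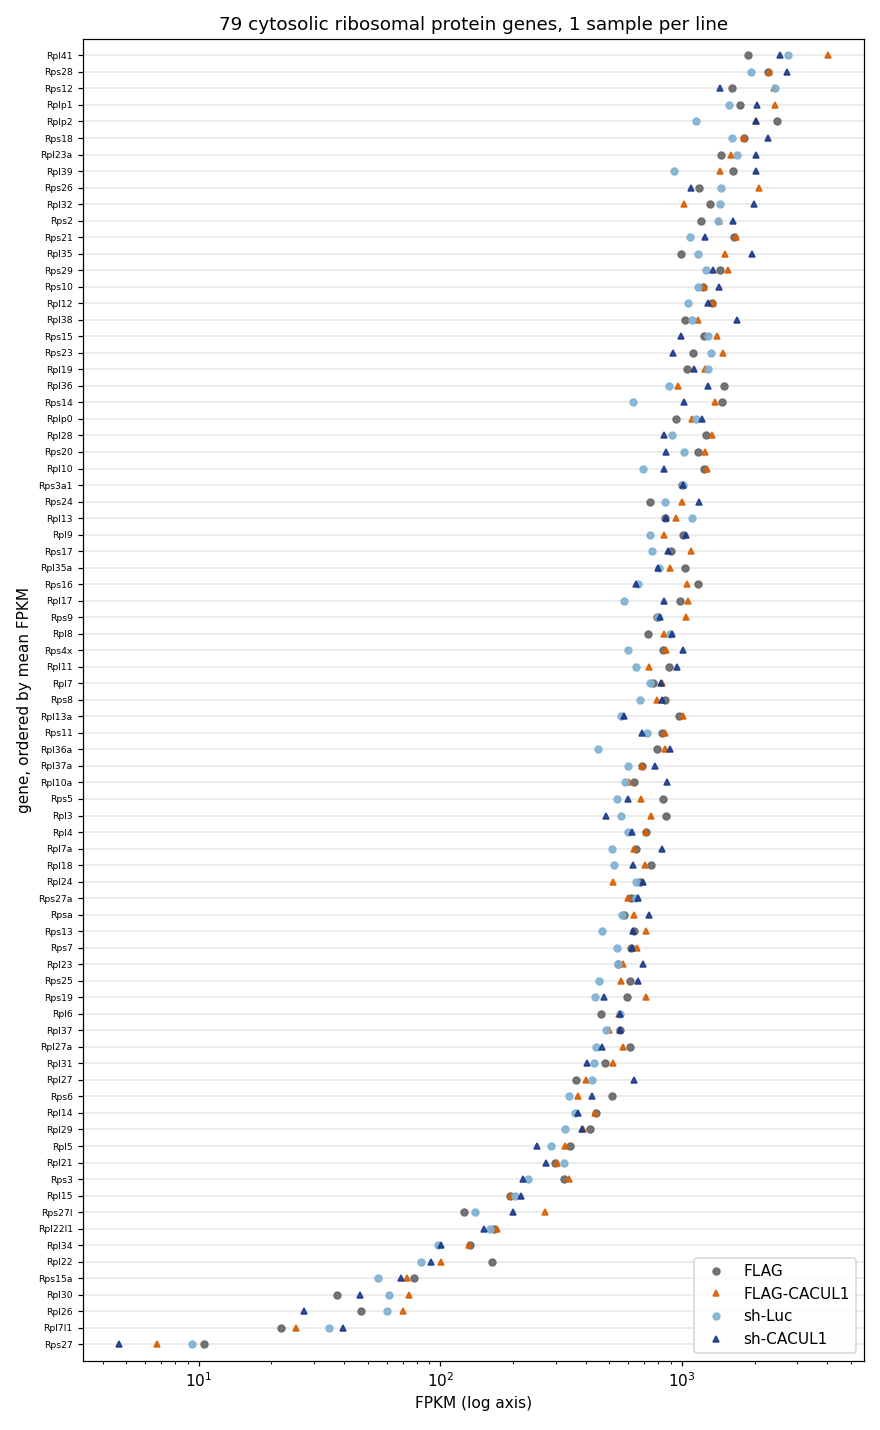
FPKM (log axis) of 79 of the 80 ribosomal protein genes in the 4 lines, 1 point per sample, with genes ordered by their mean. Most genes lie above 200 FPKM with their 4 points close together, and 9 genes with a mean under 200 FPKM form a tail that ends with Rps27 at 4.67 to 10.5 FPKM.

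The genes with the highest mean level encode small proteins. Rpl41 encodes a large subunit peptide whose coding sequence has 78 bases, and it had 1877 FPKM in FLAG against 4026 in FLAG-CACUL1, and 2752 in sh-Luc against 2542 in sh-CACUL1. Rps28, a protein near the mRNA exit channel, had 2276, 2293, 1930.5 and 2731 FPKM in the same order. FLAG-CACUL1 stood apart for Rpl41 and not for Rps28. Rps12, a protein of the beak of the small subunit, had 1609 FPKM in FLAG and 1439.7 in sh-CACUL1, against 2401 in FLAG-CACUL1 and 2426 in sh-Luc. Rplp1 and Rplp2, described with the stalk, complete the 5 highest. At the other end, 9 members had a mean under 200 FPKM. They are Rps27 (7.81 FPKM), Rpl7l1 (30.3), Rpl26 (51.0), Rpl30 (55.0), Rps15a (68.5), Rpl22 (110 FPKM), Rpl34 (116), Rpl22l1 (163) and Rps27l (184). Rps15a had 77.5, 72.8, 55.2 and 68.5 FPKM in FLAG and FLAG-CACUL1 and then sh-Luc and sh-CACUL1. The only transcript that GENCODE ties to its row has 5179 bases, against a median of 814.5 bases over the members, and whether FPKM was computed with that length is not given in the sources used here.

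FLAG-CACUL1 and FLAG cells had closely similar levels of most ribosomal protein mRNAs. The median log2(FPKM + 1) difference over the 80 genes was 0.04, with quartiles of −0.09 and 0.18, and it was −0.10 after median-of-ratios scaling, so its sign depends on the scaling. The median over all 13085 genes was 0.09, with quartiles of −0.27 and 0.48. Rpl41 and Rps27l were past 2-fold, which makes 2 of 80 members (2.50%), beside 14.7% of all genes. Among the 581 other genes with a mean of at least 100 FPKM the share was 24.6%. The members thus spread less than these 581 genes, with an SD over genes of 0.33 against 1.26. The 581 genes were not matched to the members in level. A higher value in FLAG-CACUL1 than in FLAG was found for 49 of the 80 members (61.2%), beside 58.7% of all genes. After median-of-ratios scaling it was found for 23 of the 80, beside 51.0% of all genes. At 1.5-fold or more the count was 7 of 80, beside 34.3% of all genes. Set against sh-Luc in place of FLAG, 1 member, Rps14, was past 2-fold in FLAG-CACUL1, beside 9.90% of all genes. Rpl41 and Rps27l then had log2 differences of 0.55 and 0.95.

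Rpl41 had the second highest difference, with 1877 FPKM in FLAG and 4026 in FLAG-CACUL1 (2.15-fold, log2 1.10). Its levels in sh-Luc and sh-CACUL1 fell between these, and against sh-Luc the log2 difference of FLAG-CACUL1 was 0.55. Rps27l, a paralog of Rps27 that is known as a p53 target, had 125 FPKM in FLAG and 272 in FLAG-CACUL1 (2.17-fold, log2 1.11). With 139.8 FPKM in sh-Luc and 201 in sh-CACUL1, FLAG-CACUL1 was its highest line. Both stood just past the limit of 2-fold, and after median-of-ratios scaling neither reached it (0.96 for Rpl41 and 0.97 for Rps27l). The next members were Rpl30 (0.97), Rps26 (0.84), which contacts the mRNA upstream of the start codon, Rpl35 (0.59), a protein at the exit of the peptide tunnel, and Rps12 (0.58). Rps26 had 1172 FPKM in FLAG and 2094 in FLAG-CACUL1. Its levels of 1451 FPKM in sh-Luc and 1092 in sh-CACUL1 left FLAG-CACUL1 as the highest line.

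No member was 2-fold lower in FLAG-CACUL1, beside 7.22% of all genes. The lowest log2 differences were those of Rpl22 (−0.70), an RNA-binding protein of the large subunit, Rpl36 (−0.62), Rps27 (−0.57) and Rps6 (−0.48), the small subunit protein that S6 kinases phosphorylate. Rpl22 had 164 FPKM in FLAG and 101 in FLAG-CACUL1, with 83.2 in sh-Luc and 91.3 in sh-CACUL1, so FLAG stood above the other lines. Rpl36 had 1487 FPKM in FLAG and 968 in FLAG-CACUL1, and 882 and 1277 in sh-Luc and sh-CACUL1. Rps6 had 515 and 369.9 FPKM, and 342 and 423. For Rpl36 and Rps6, on FPKM as deposited, FLAG was the highest and FLAG-CACUL1 lay close to sh-Luc.

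sh-CACUL1 cells had higher levels of most ribosomal protein mRNAs than sh-Luc cells, in contrast to the genes at large. The median log2(FPKM + 1) difference over the members was 0.19, with quartiles of −0.02 and 0.44, whereas the median over all genes was −0.30, with quartiles of −0.77 and 0.10. Relative to all genes the members stood 0.49 higher on the log2 scale, and between 0.24 and 0.65 higher under the 4 other scalings between samples. A higher value in sh-CACUL1 was found for 59 of 80 members (73.8%), beside 31.3% of all genes. On FPKM as deposited, this pattern depended on the control. Set against FLAG, sh-CACUL1 had a median difference of −0.01 over the members, beside −0.07 over all genes. It had a higher value for 39 members, beside 44.5% of all genes, and 1 member, Rps27, was past 2-fold, beside 22.9%. Other scalings are not given for this comparison. The members' share of summed FPKM was 14.6% in FLAG and 19.0% in sh-CACUL1. Rpl39 was 2-fold higher and Rpl26 2-fold lower than in sh-Luc, so that 2 of 80 members (2.50%) were past the limit, beside 21.3% of all genes and 39.6% of the 581 other genes with at least 100 FPKM. The median-of-ratios scaling, under which the median over all genes was 0.01, placed 14 of 80 members at 2-fold or more, beside 16.9% of all genes. All 14 were higher in sh-CACUL1, beside 9.41% of all genes. Rpl26 was past 2-fold under none of the 4 other scalings, with log2 differences between −0.96 and −0.64, and Rpl39 under each of them. At 1.5-fold or more the count was 11 of 80, beside 44.4% of all genes.

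Rpl39, a small protein of the wall of the exit tunnel, had 928 FPKM in sh-Luc and 2019 in sh-CACUL1 (2.17-fold, log2 1.12). FLAG and FLAG-CACUL1 had 1627 and 1439.7 FPKM, so sh-Luc was the line that stood apart, and against FLAG the log2 difference of sh-CACUL1 was 0.31. Rpl36a followed with 449 FPKM in sh-Luc against 894 in sh-CACUL1 (0.99), and 792 and 852 in FLAG and FLAG-CACUL1. The next were Rplp2 (0.83), Rpl35 (0.75) and Rps4x (0.75), an X-linked gene of the small subunit. For Rps4x sh-Luc was again the lowest, with 599.6 FPKM against 838 in FLAG, 863 in FLAG-CACUL1 and, as the highest, 1009 in sh-CACUL1. Rpl35 had 996 FPKM in FLAG against 1504 in FLAG-CACUL1, and 1161 in sh-Luc against 1958 in sh-CACUL1, and so was higher in both CACUL1 lines than in their controls.

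Rpl26, a large subunit protein near the tunnel exit that is also known to bind the p53 mRNA, had 59.9 FPKM in sh-Luc and 27.4 in sh-CACUL1 (2.19-fold lower, log2 −1.10). It had 46.9 FPKM in FLAG and 70.0 in FLAG-CACUL1, so sh-CACUL1 was the lowest of the lines. The other low differences were those of Rps27 (−0.87), Rps12 (−0.75), Rps23 (−0.51), a protein of the decoding centre, and Rps26 (−0.41). Rps26 was higher in sh-CACUL1 under median-of-ratios scaling. Rps23 had 1111 FPKM in FLAG against 1474 in FLAG-CACUL1, and 1313 in sh-Luc against 920.2 in sh-CACUL1. Rps12, Rps23 and Rps26 thus shared, on FPKM as deposited, an order in which sh-CACUL1 was the lowest line. This order can change with the scaling.

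**Figure D2:**
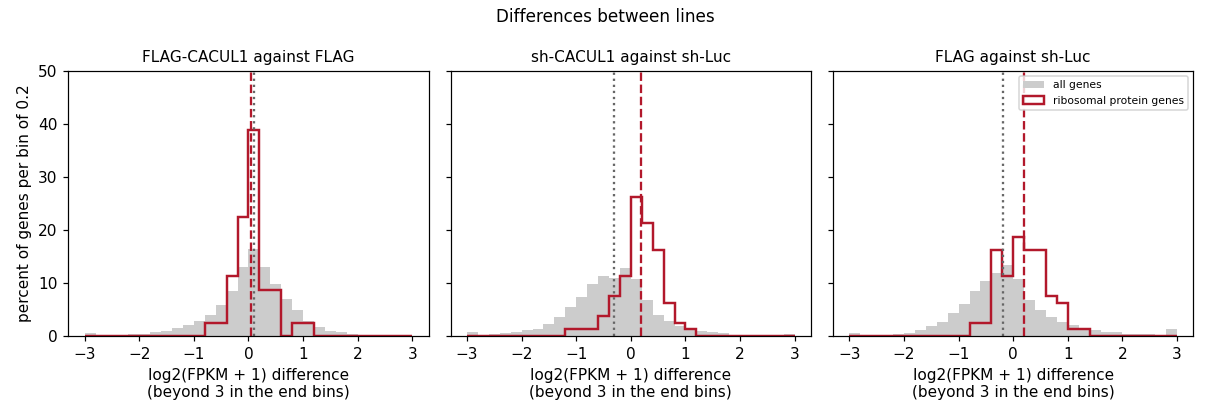
Percent of genes per bin of log2(FPKM + 1) difference for all 13085 genes (grey) and the 80 ribosomal protein genes (red line) in 3 comparisons of 1 sample each, with the median of all genes dotted and that of the members dashed. The members are narrower than all genes in each panel, and their median of 0.19 in sh-CACUL1 against sh-Luc stands opposite to −0.30 for all genes.

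The controls FLAG and sh-Luc differ in vector and selection drug but in no CACUL1 treatment, and give a view of how far these genes differ between lines. On FPKM as deposited, the median difference of FLAG minus sh-Luc over the members was 0.19, with quartiles of −0.11 and 0.46. That of sh-CACUL1 minus sh-Luc was also 0.19. Over all genes the median of FLAG minus sh-Luc was −0.18. Relative to all genes the members thus stood 0.38 higher in FLAG and 0.49 higher in sh-CACUL1. Their share of summed FPKM was 14.6% in both FLAG and sh-Luc, and other scalings are not given for these controls. Rps14 and Rplp2 were 2-fold higher in FLAG, which makes 2 of 80 members beside 21.0% of all genes. Rps14, a protein of the small subunit platform, had 1466 FPKM in FLAG against 1368 in FLAG-CACUL1, and 629 in sh-Luc against 1024 in sh-CACUL1. The order of the lines was also counted on FPKM as deposited, and it can change with the scaling. Of the 80 members, 41 were lowest in sh-Luc (51.2%), beside 11.3% of all genes. sh-CACUL1 was the highest line for 30 members (37.5%), beside 18.8% of all genes, and the lowest for 17 (21.2%), beside 41.6% of all genes. Both FLAG lines stood above both sh lines for 29 members (36.2%), beside 17.3% of all genes, among them Rpl10, Rpl13a, Rps3 and Rps19. The reverse was found for 10 members, beside 18.8% of all genes.

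Across the 4 lines the highest FPKM of a member was at the median 1.43 times its lowest, against 2.55 times over all genes and 2.46 times over the 581 other genes with at least 100 FPKM. A ratio of at least 2 was reached by 7 members, Rpl26, Rpl39, Rpl41, Rplp2, Rps14, Rps27 and Rps27l, which is 8.75% beside 68.1% of all genes.

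Higher values in both CACUL1 lines than in their controls were found for 33 members (41.2%), beside 15.2% of all genes, and lower values in both for 5 (Rpl3, Rpl5, Rpl35a, Rps16 and Rps27), beside 25.3%. Opposite directions were found for the other 42. Of these, 16 were higher in FLAG-CACUL1 and lower in sh-CACUL1, beside 43.4% of all genes, and 26 were lower in FLAG-CACUL1 and higher in sh-CACUL1, beside 16.1%. These counts rest on small differences. The sign was the same in all 4 other scalings for 50 members in FLAG-CACUL1 against FLAG and for 60 members in sh-CACUL1 against sh-Luc. In the latter comparison 56 of these 60 were higher in sh-CACUL1 and 4 were lower, Rpl26, Rps12, Rps23 and Rps27. Pearson's r between the 2 comparisons, which share no sample, was −0.23 over the 80 members and −0.31 over all genes, given as a description.

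**Figure D3:**
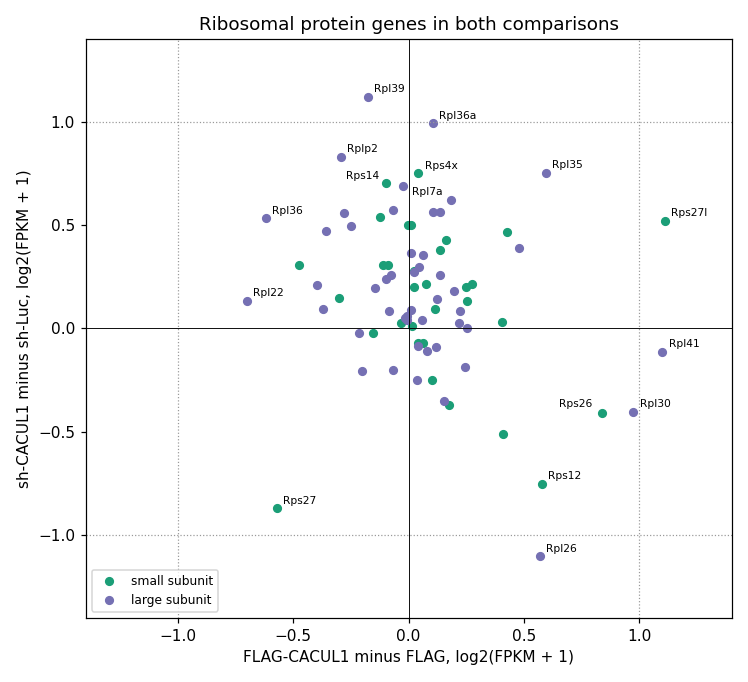
Log2(FPKM + 1) difference of each ribosomal protein gene in FLAG-CACUL1 against FLAG (horizontal) and in sh-CACUL1 against sh-Luc (vertical), green for the small and violet for the large subunit, with 2-fold limits dotted. Rpl41 and Rps27l lie past the limit on the horizontal axis and Rpl39 and Rpl26 on the vertical axis, and the other 76 genes lie inside.

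The P stalk, made of Rplp0, Rplp1 and Rplp2, draws elongation factors to the large subunit. Rplp0 had 944 FPKM in FLAG against 1102 in FLAG-CACUL1, and 1146 in sh-Luc against 1213 in sh-CACUL1. Rplp1 had 1743, 2433, 1559.9 and 2042 FPKM, and was higher in both CACUL1 lines than in their controls. Rplp2 had 2487, 2028, 1143 and 2031 FPKM, so its low value in sh-Luc stood apart from the other lines. The log2 differences of FLAG-CACUL1 from FLAG were 0.22, 0.48 and −0.29, and those of sh-CACUL1 from sh-Luc 0.08, 0.39 and 0.83. The components of the stalk thus did not keep 1 ratio across the lines.

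Rpl5, Rpl11 and Rpl23 are large subunit proteins known to bind MDM2, the ubiquitin ligase of p53, when ribosome assembly is disturbed. Rpl5 had 344 FPKM in FLAG against 328 in FLAG-CACUL1, and 289 in sh-Luc against 251 in sh-CACUL1. Rpl11, which joins the large subunit together with Rpl5 and 5S rRNA, had 883, 727, 647 and 951 FPKM. In sh-CACUL1 against sh-Luc the log2 difference was −0.20 for Rpl5 and 0.56 for Rpl11, and the sign of the former depended on the scaling. Rpl23 had 546, 571, 542 and 693 FPKM. Of these genes, Rpl11 and Rpl23 had their highest level in sh-CACUL1 and Rpl5 in FLAG.

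Other large subunit genes differed by less than 2-fold. Rpl10, which is needed in the last steps of subunit assembly, had 1229.9 FPKM in FLAG and 1267 in FLAG-CACUL1, against 688 in sh-Luc and 846 in sh-CACUL1. Rpl13a, which also serves outside the ribosome in translational control during inflammation, had 971 and 1010.4 FPKM in the FLAG lines and 560.0 and 576 in the sh lines. For both genes, on FPKM as deposited, the FLAG lines stood above the sh lines by more than either CACUL1 line differed from its control. Vector, selection drug and line cannot be told apart here. Rpl3, a protein next to the peptidyl transferase centre, had 857, 744, 559 and 485 FPKM in the order used above, and lay lower in sh-CACUL1 than in sh-Luc except after median-of-ratios scaling. Rpl10a, a protein of the L1 stalk, had 636, 607, 584 and 868 FPKM. Rpl38, whose loss in mice disturbs translation of Hox mRNAs, had 1026, 1165, 1101 and 1693 FPKM. Both were highest in sh-CACUL1, with log2 differences from sh-Luc of 0.57 and 0.62.

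In the small subunit, Rps3, a protein of the mRNA entry channel, had 326 and 341 FPKM in FLAG and FLAG-CACUL1 and 231 and 220.3 in sh-Luc and sh-CACUL1. Rps19, a gene mutated in Diamond-Blackfan anaemia, had 593, 707, 436 and 478 FPKM. Both FLAG lines were above both sh lines for either gene on FPKM as deposited, an order that for Rps19 depends on the scaling. Rps25, needed for initiation at some viral internal entry sites, had 609.7, 559.8, 454 and 660.1 FPKM, and Rpsa, also known as the laminin receptor, had 574, 630.5, 563 and 733 FPKM. Their levels, on FPKM as deposited, were highest in sh-CACUL1 and lowest in sh-Luc. Rps27a, which is made as a fusion to ubiquitin, varied little, with 616, 601, 647 and 658 FPKM. Fau, which the symbol rule does not take and whose ubiquitin-like part is fused to a small subunit protein, varied more, with 2139, 1266, 823 and 868 FPKM.

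The files hold 3 paralogs of standard ribosomal proteins. Whether their proteins stand in for the standard ones in ribosomes was not tested. Rpl22l1 had 167 FPKM in FLAG against 172 in FLAG-CACUL1, and 161 in sh-Luc against 152 in sh-CACUL1, a narrower range than its partner Rpl22. The ratio of Rpl22l1 to Rpl22 was therefore 1.02 in FLAG, but lay at 1.71 for FLAG-CACUL1, 1.94 for sh-Luc and 1.66 for sh-CACUL1. Rpl7l1 had 21.9, 25.2, 34.7 and 39.5 FPKM and made up between 2.80% and 4.61% of the sum with Rpl7. Rpl7 itself had 761, 829, 740.2 and 818 FPKM. The row of Rps27l exceeded that of Rps27 in every line, from 12.0 times in FLAG to 43.0 times in sh-CACUL1, but the row of Rps27 does not give the level of its protein's mRNA, as described next.

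Rps27, a small subunit protein with a zinc finger, was listed at 10.5 FPKM in FLAG against 6.73 in FLAG-CACUL1, and 9.36 in sh-Luc against 4.67 in sh-CACUL1, which is about 52, 33, 77 and 24 fragments at the estimated depths. A second row, Rps27rt, had 1498, 1269, 1646 and 1303 FPKM. GENCODE places Rps27 on chr3:90212671-90213651 (GRCm38, minus strand), with its coding sequence in 4 exons, and Rps27rt on chr9:114982366-114982739 (minus strand), in 1 exon. The coding sequences of 255 bases are identical, so fragments inside them cannot be assigned to either locus from their sequence alone, and the sequence, read from the GENCODE transcripts, is shown for that reason.
Rps27 and Rps27rt: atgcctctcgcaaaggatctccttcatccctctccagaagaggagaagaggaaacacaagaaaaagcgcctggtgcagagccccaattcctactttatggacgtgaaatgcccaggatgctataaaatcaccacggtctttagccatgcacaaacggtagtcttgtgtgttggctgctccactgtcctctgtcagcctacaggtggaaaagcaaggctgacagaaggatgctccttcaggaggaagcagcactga
The sum of both rows was 1509 FPKM in FLAG against 1275 in FLAG-CACUL1, and 1655 in sh-Luc against 1307 in sh-CACUL1. On the sum, the log2 difference was −0.24 for FLAG-CACUL1 and −0.34 for sh-CACUL1, in place of −0.57 and −0.87 on the row of Rps27, and the row of Rps27 held 0.544% of the sum.

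Rpl26, Rpl30 and Rpl34 had the same arrangement, with a pseudogene row far above that of the gene. For Rpl26 the row of the processed pseudogene Gm15772 had 1044 FPKM in FLAG against 1079 in FLAG-CACUL1, and 1092 in sh-Luc against 1193 in sh-CACUL1. Its sequence differs from the 438 coding bases of Rpl26 by C177T and T288C, counted from the A of the start codon with the base of Rpl26 first. The stretch from position 169 to 288 is shown because its ends hold the only bases, in capitals, by which a fragment of coding sequence could be told apart.
Rpl26: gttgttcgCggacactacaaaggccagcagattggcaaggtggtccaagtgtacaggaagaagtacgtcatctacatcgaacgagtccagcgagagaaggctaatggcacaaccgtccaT
Gm15772: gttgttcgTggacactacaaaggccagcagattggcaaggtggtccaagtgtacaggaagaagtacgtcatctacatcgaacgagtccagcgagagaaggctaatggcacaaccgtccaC
Summed, the rows had 1090.5, 1149, 1152 and 1221 FPKM in the order used above. The log2 difference in sh-CACUL1 against sh-Luc was then 0.08 in place of −1.10, and Rpl26 was no longer past 2-fold.

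Rpl30, a large subunit protein, had 37.4 FPKM in FLAG against 74.5 in FLAG-CACUL1, and 61.6 in sh-Luc against 46.4 in sh-CACUL1. Its pseudogene row Gm12191, with the single difference G96A in 348 coding bases, had 1206, 1209, 1116 and 951 FPKM. The log2 difference in FLAG-CACUL1 against FLAG was 0.97 on the row of Rpl30 and 0.05 on the sum. Rpl34 had 133, 132, 97.9 and 101 FPKM, and Rpl34-ps1, with T132C and C318G in 354 coding bases, had 1076, 1038, 1007 and 1184. Its log2 differences stayed small on the sum, at −0.05 and 0.22. The copy held over 90% of the sum in each of these pairs, since the gene made up 0.544% for Rps27, 4.43% for Rpl26, 4.68% for Rpl30 and 9.72% for Rpl34.

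**Figure D4:**
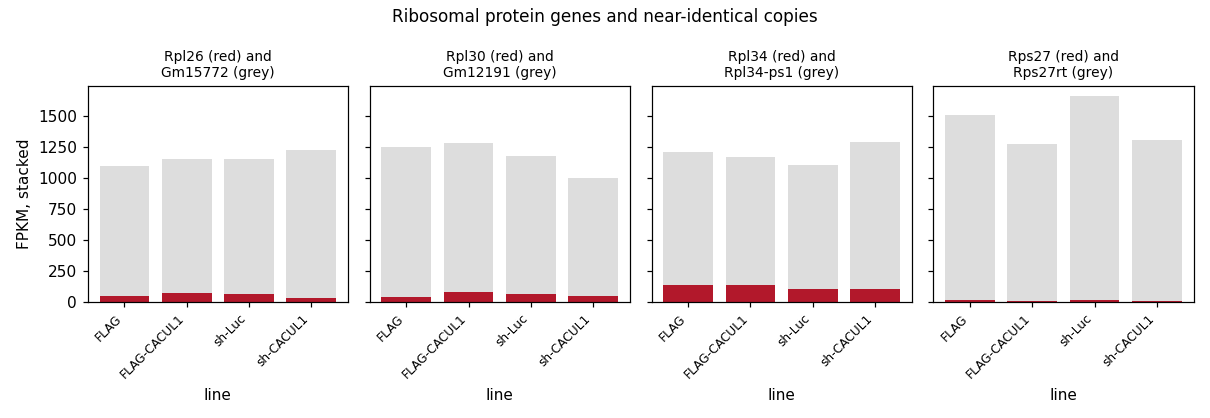
FPKM of 4 ribosomal protein genes (red) with the row of their near-identical copy stacked on top (grey) in the 4 lines, 1 sample each. The gene is a thin part of every bar and the sums stay between 997 and 1655 FPKM.

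Near-identical copies were common beyond these genes. Of the 80 members, 69 shared at least 50% of the 31-base stretches of their coding sequence with 1 other GENCODE gene, and 57 shared at least 90% with any other gene. For 12 members such copies had rows of their own, 13 in all, and the other 9 rows had a mean of at most 24.5 FPKM. Of the 9 members with a mean under 200 FPKM, 4 were those with a copy row above 100 FPKM, and summing left Rpl22, Rpl22l1, Rpl7l1, Rps15a and Rps27l under 200 FPKM. How the fragments were divided among copies is not given in the sources used here, so levels and differences of members with copies are uncertain. With copies summed, the medians over the members stayed at 0.04 and 0.19, and the members past 2-fold were Rpl41 and Rps27l in FLAG-CACUL1 and Rpl39 in sh-CACUL1. Rpl41, whose coding sequence is shared in full with the pseudogene Gm10076, has no such row to sum.

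RefSeq promoters, from 250 bases before to 50 after a start in GRCm38.p6, were given for 60 of the 80 members, with 71 starts. The letters CCGGAAG, a core site of ETS factors such as GABP, were found on either strand in 36.6% of these, against 8.86% of 32851 promoters of all genes. GGGCGG, the SP1 box, was found in 62.0% against 35.7%, and AAGATGGC, a YY1 site, in 11.3% against 2.75%. TATAAA was found in 9.86% against 13.6%, and CACGTG, the E box, in 11.3% against 7.15%. A run of at least 5 pyrimidines over or beside the start was found in 38.0% of the member promoters against 18.7% of all. Windows from 50 bases before to 15 after the start are shown for Rplp2 and for 3 of the genes past 2-fold. Rplp2, among the 5 highest members, was picked for the longest run of the windows examined, with 10 bases. Its start lies 281 bases from the nearest annotated transcript start of its row. Not shown are Rps28, Rps12 and Rpl39, with runs of 4, 2 and 5 bases and none of the searched strings in the window. Capitals mark the run where it has at least 5 bases, CCGGAAG, and GGGCGG on either strand.
Rplp2, chr7:141447601-141447665, plus strand: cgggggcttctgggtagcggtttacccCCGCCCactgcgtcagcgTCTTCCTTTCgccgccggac
Rpl41, chr10:128549154-128549218, minus strand: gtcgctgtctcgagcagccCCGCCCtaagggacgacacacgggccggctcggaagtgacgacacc
Rpl26, chr11:68901516-68901580, plus strand: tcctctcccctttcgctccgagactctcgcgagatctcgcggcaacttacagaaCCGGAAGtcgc
Rps27l, chr9:66946036-66946100, plus strand: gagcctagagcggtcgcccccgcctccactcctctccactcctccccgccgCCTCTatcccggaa
Rpl41 and Rps27l, both higher in FLAG-CACUL1, hold different marked letters in these windows.

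The other genes of translation did not all move with the ribosomal proteins. For the 27 other TOP mRNAs, among them those of elongation factors, of some initiation factors and of proteins outside translation such as Vim, the median log2 difference was −0.13 in FLAG-CACUL1 against −0.29 in sh-CACUL1, the latter near the −0.30 of all genes and positive after median-of-ratios scaling. None was past 2-fold in FLAG-CACUL1, beside 14.7% of all genes, and Eef2, Nap1l1 and Vim were 2-fold lower in sh-CACUL1, beside 16.4%. Eef1a1, the factor that brings aminoacyl-tRNA, had 3807, 3297, 2331 and 2506 FPKM in the order used above. Eef2, which moves the ribosome by a codon, had 931, 877, 809 and 387 FPKM, so it was lowest in sh-CACUL1, where most ribosomal protein genes exceeded sh-Luc. Tpt1, the translationally controlled tumour protein, had 2145, 2421, 2195 and 2264 FPKM, and Rack1, a scaffold on the small subunit, 707, 619.7, 639 and 727 FPKM.

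The 55 genes of ribosome biogenesis had a median of 0.53 in FLAG-CACUL1 against FLAG, with a range over the other scalings of 0.39 to 0.55, and 47 of 55 were higher, beside 58.7% of all genes. The direction turned with the control, since against sh-Luc the median of FLAG-CACUL1 was −0.42 and 7 of 55 were higher, beside 39.9% of all genes. Fbl, the methyltransferase of rRNA, Nop56, Nhp2, Bop1, Nolc1, Rrs1, Ddx21, Ddx51 and Utp20 were past 2-fold and higher, which is 9 of 55 (16.4%) beside 7.51% of all genes. Nop56 had 13.1 FPKM in FLAG against 43.9 in FLAG-CACUL1, and 65.7 in sh-Luc against 65.7 in sh-CACUL1, and Ddx21, an RNA helicase of the nucleolus, had 4.12, 15.3, 29.6 and 13.4 FPKM. FLAG was thus the low line for both. In sh-CACUL1 against sh-Luc the median was −0.45, with a range over the other scalings of −0.32 to −0.02. Relative to the median of all genes it was −0.15, and between −0.09 and −0.03 under the other scalings. Of the 55 genes 13 were higher, beside 31.3% of all genes. Rrp15, Tcof1, Ddx21 and Utp20 were 2-fold lower, beside 16.4% of all genes. Against FLAG the median was 0.56 in sh-CACUL1, with 41 of 55 higher, beside 44.5% of all genes, so this direction turned with the control too. FLAG itself had a median of −0.89 against sh-Luc. Ncl, a main protein of the nucleolus, had 59.1, 71.9, 66.7 and 43.4 FPKM, and Npm1, which is in this list and the TOP list, had 389.6, 387, 490.3 and 306 FPKM. Of the 14 genes of RNA polymerase I, which makes the large rRNAs, Polr1b, Znrd1 and Ubtf were 2-fold higher in FLAG-CACUL1, beside 7.51% of all genes, and Polr1c was 2-fold lower, beside 7.22%. The median was 0.38 against FLAG and −0.26 against sh-Luc. None was past 2-fold in sh-CACUL1, where the median was −0.27 and turned positive after median-of-ratios scaling and, at 0.40, against FLAG.

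Among 22 measured of 23 regulators of TOP mRNAs and of ribosomal protein genes the median was 0.04 in FLAG-CACUL1 but −0.35 in sh-CACUL1, and both changed sign after median-of-ratios scaling. With the controls exchanged they were −0.32 and −0.16. Rps6kb1, the kinase of Rps6, was 2-fold higher in FLAG-CACUL1 (8.85 FPKM) than in FLAG (3.30), with 11.2 in sh-Luc and 10.0 in sh-CACUL1. Rps6ka1, a kinase that also phosphorylates Rps6, and Eif4ebp1, an inhibitor of the cap-binding factor Eif4e, were 2-fold lower in FLAG-CACUL1. Thus 3 of 22 were past the limit, beside 14.7% of all genes. Mnt and Trp53 were 2-fold lower in sh-CACUL1, beside 16.4%. Larp1 lay between 18.5 and 23.8 FPKM and Mtor between 3.89 and 4.81 FPKM, whereas Rptor, a partner of Mtor in mTORC1, had 5.63, 7.27, 13.3 and 6.28 FPKM and was highest in sh-Luc. Myc, an activator of ribosomal protein genes, had 12.8 FPKM in FLAG against 8.13 in FLAG-CACUL1, and 20.7 in sh-Luc against 38.3 in sh-CACUL1, so FLAG-CACUL1 was its lowest line.

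The 78 mitochondrial ribosomal protein genes had medians of −0.04 for FLAG-CACUL1 and 0.22 for sh-CACUL1, beside 0.04 and 0.19 for the cytosolic ones. In sh-CACUL1 58 of 78 were higher than in sh-Luc and 6 past 2-fold, beside 4.94% of all genes, among them Mrpl12 with 264 FPKM against 90.9. In FLAG-CACUL1 1 of 78 was 2-fold higher, beside 7.51% of all genes, and 2 were 2-fold lower, beside 7.22%. With the controls exchanged the medians were −0.20 and 0.34. The 53 translation initiation factors had medians of 0.09, which turned negative after median-of-ratios scaling, and −0.47. Past 2-fold were 5 of 53 in FLAG-CACUL1, beside 14.7% of all genes, and 7 of 53 in sh-CACUL1, beside 21.3%, and 7 of 53 exceeded sh-Luc in sh-CACUL1, beside 31.3% of all genes. With the controls exchanged their medians were −0.06 and −0.36. The medians of the cytosolic and the mitochondrial ribosomal proteins thus stood above that of all genes in sh-CACUL1 against sh-Luc, whereas that of the initiation factors stood below it.

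**Figure D5:**
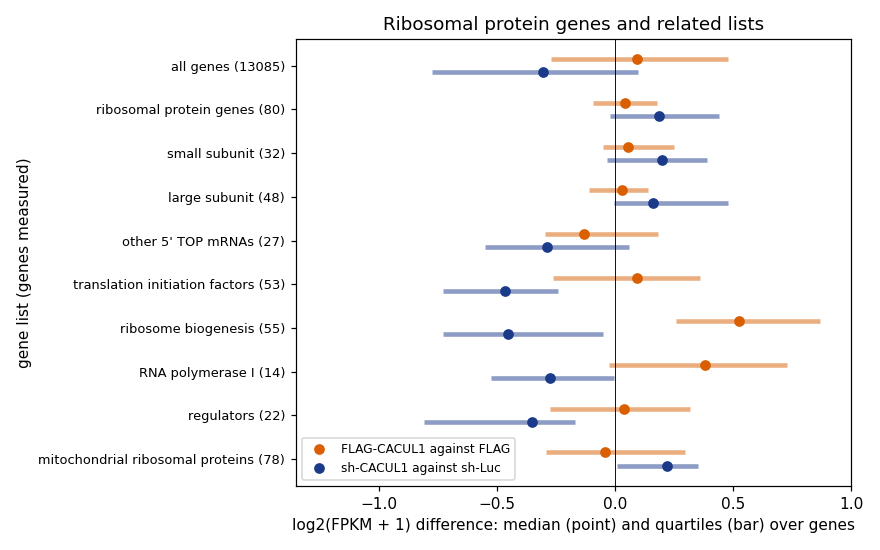
Median (point) and quartiles (bar) of the log2(FPKM + 1) difference over the genes of each list, for FLAG-CACUL1 against FLAG (orange) and sh-CACUL1 against sh-Luc (blue), with the number of genes measured in brackets. On FPKM as deposited, the medians in sh-CACUL1 of cytosolic (0.19, small subunit 0.20, large subunit 0.16) and mitochondrial (0.22) ribosomal proteins lie above 0. Those of the other lists lie below it, and in FLAG-CACUL1 ribosome biogenesis (0.53) lies highest.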

How the data were processed

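RNA-seq of 4 stable 3T3-L1 lines (the controls FLAG and sh-Luc, and FLAG-CACUL1 and sh-CACUL1) at day 8 of adipogenesis was analysed, with 1 sample per line. Per sample, the authors deposited a table of FPKM with 13110 rows named by RefSeq transcripts. Library preparation, sequencing and the selection of genes past 2-fold were done by a company. The submitters' processing notes name the mm10 genome build, while the aligner, the program that computed FPKM and the treatment of fragments that match several loci are not given in the sources used here.

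Symbols were assigned to rows from the GENCODE M21 table of RefSeq identifiers, and rows of 1 symbol were summed, which left 13085 genes. For 196 rows no symbol was found. Each of the 80 members had 1 row. Differences are log2(FPKM + 1), which understates those of genes with low FPKM, and 2-fold was called on that scale. With 1 sample per group no test was made, and lists are described by counts and medians beside all genes. Depth was estimated from the spacing of low FPKM values, and limits the precision of Rps27 most. The scripts were tested on simulated data. Members and lists were chosen with earlier results of these data known. The rule for named members took the 5 highest and 5 lowest mean levels, the 5 highest and 5 lowest differences of each comparison, members past 2-fold, fixed roles and paralog pairs, 37 members in all. A member that the rule took and a gene outside the rule are counted but not reported here. Rps14, Rpl34, Rpl35a, Rps16, Rptor, the copies and the list genes past 2-fold were named after their values were seen.

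Copies were found by shared stretches of 31 bases in coding sequences. Alternatives were other pseudocounts, a filter at 1 FPKM, quantile normalization, median-of-ratios scaling, rescaling to a fixed sum with and without the 50 highest genes, the other control, 1 row per symbol, members without paralogs and other cut-offs. Computations used Python 3.11.15 with numpy 2.4.6 and pandas 2.3.3, and matplotlib 3.10.9 for figures.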

Additional observations from a re-analysis of the deposited data

How the results depend on the processing

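No paired analysis was possible because each line gave 1 sample and the groups compared share fewer than 2 replicate numbers, and no replicate could be left out. The median over the members in FLAG-CACUL1 against FLAG (0.04) was −0.10 after median-of-ratios scaling and 0.25 against the other control, and in sh-CACUL1 against sh-Luc (0.19) it was 0.66 after median-of-ratios scaling, 0.35 after rescaling to a fixed sum, 0.38 without the 50 highest genes in that sum and −0.015 against the other control. The count past 2-fold in FLAG-CACUL1 (2) was 1 after quantile normalization, beside 14.1% of all genes, and 1 against the other control, beside 9.90%. Without paralogs it was 1 and after median-of-ratios scaling 0, each beside 14.7% of all genes. At 1.5-fold it was 7, beside 34.3% of all genes. In sh-CACUL1 (2) it was 14 after median-of-ratios scaling, beside 16.9% of all genes, and 1 against the other control, beside 22.9%. At 1.5-fold it was 11, beside 44.4% of all genes. With the rows of near-identical copies, an alternative chosen after seeing the data, it was 1. At 3-fold the count was 0 in both comparisons, and the share of all genes at that cut-off is not given. The number of higher members was 23 in FLAG-CACUL1 after median-of-ratios scaling (49), beside 51.0% of all genes, and 39 in sh-CACUL1 against the other control (59). Without the 50 highest genes the members' share of FPKM was 9.95% in FLAG against 10.2% in FLAG-CACUL1, and 8.89% in sh-Luc against 11.7% in sh-CACUL1, and with copies it was 15.8% in sh-Luc. In each of these versions the share was highest in sh-CACUL1. The causes of these shifts were not tested. Of the 734 differences of named members under the alternatives, 506 moved by under 0.1, 11 fell short of 2-fold and 217 moved further. The 506 include the 1 FPKM filter and 1 row per symbol (74 each) and members without paralogs (68). These alternatives could not change a member's own difference. Under median-of-ratios scaling 70 of 74 moved further, and against the other control 60 did.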
